A study of Mus musculus with 9 samples.

Results

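The data compared here were 6 of the 9 RNA sequencing libraries of a study of virus-specific memory T cells in mouse spleen: all 3 libraries titled CD4 ThpokAD were set against all 3 titled CD8 control, over every gene of the deposited count table. All mice had been infected 30 days earlier with LCMV Arm, a strain of lymphocytic choriomeningitis virus that causes an acute, cleared infection. The CD4 ThpokAD cells bound the viral peptide GP66 on the MHC class II molecule I-Ab and came from Ox40-Cre+ Thpokfl/fl mice. The CD8 control cells bound the viral peptide GP33 on the MHC class I molecule H-2Db and came from Ox40-Cre- mice. A further 3 libraries, titled CD4 control, came from GP66:I-Ab+ cells of Ox40-Cre- mice; they shared the estimate of spread in the fit, and their levels are given as a reference with no test. Ox40-Cre is active in T cells that have switched on Ox40, the receptor encoded by Tnfrsf4, so the floxed gene is cut after activation. The labels give Cre to the CD4 ThpokAD cells alone and do not state whether the Cre- mice carried floxed alleles. Lineage, peptide, MHC class, Cre and the loss of Thpok differ between the groups together, and their contributions cannot be told apart. Whether the 3 replicates of a group are 3 animals is not stated in the labels, and each p-value therefore measures the spread between samples that may be technical.

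Thpok, encoded by Zbtb7b, is a zinc finger transcription factor that commits thymocytes selected on MHC class II to the CD4 helper lineage and holds down genes of the CD8 cytotoxic lineage. Its counterpart Runx3 silences Cd4 and favours Cd8a and cytotoxic genes. CD8 memory T cells keep perforin, granzymes and chemokines ready for release, whereas CD4 memory T cells mostly provide help through CD40 ligand, costimulatory receptors and cytokines. The comparison asks how far the transcripts of CD4 memory cells without Thpok matched those of CD8 memory cells of the same infection, and where they stayed apart.

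Total counts were 18517118 to 20245185 in the CD4 ThpokAD libraries and 19850495 to 38981516 in the CD8 control libraries. Levels are given as CPM, counts scaled to library size with trimmed mean of M values (TMM) factors. Across genes, log CPM correlated at r = 0.835 to 0.878 between a CD4 ThpokAD and a CD8 control library, against 0.892 to 0.908 within CD4 ThpokAD and 0.903 to 0.932 within CD8 control. CD8 control replicate 3, the deepest library, stood apart: its ribosomal protein genes summed to 10992 CPM and its mitochondrially encoded genes to 10357 CPM, while the other 5 libraries compared lay at 15513 to 23387 and 18052 to 24961. Without it, 586 genes were called higher and 187 lower in CD4 ThpokAD, against 729 and 301 with it. T cell transcripts were present in all 6: Cd3e ranged from 649 to 1116 CPM and the receptor constant gene Trac from 667 to 1225 CPM. Markers of other cells were present. Summed over each list, markers of dendritic cells and MHC class II genes lay at 1085 to 1958 CPM in CD4 ThpokAD and 476 to 578 CPM in CD8 control. B cell markers lay at 299 to 499 CPM in CD4 ThpokAD and 259 to 816 CPM in CD8 control, and myeloid markers at 786 to 1088 CPM against 317 to 569 CPM. In sorted bulk samples, fewer cells of a type and less RNA per cell cannot be told apart.

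Zbtb7b, on chromosome 3 at 89377644 to 89394776 of GRCm38, was at 0.698, 0.875 and 0.849 CPM in the 3 CD4 ThpokAD libraries, at 24.0, 19.4 and 18.8 CPM in the CD8 controls and at 44.97 ± 5.68 CPM (SD, n = 3) in the CD4 controls. The transcript was thus near 1 CPM in every library labelled as deleted, and the CD8 controls, a lineage in which Thpok is held low, still carried more of it. Set against the CD8 controls, the log2 fold change was -4.68 (SE 0.25, adjusted p = 2.0e-05). This and every adjusted p below come from the quasi-likelihood test of edgeR, corrected after Benjamini and Hochberg over all genes tested, and every log2 fold change from the same fit.

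Of 15738 genes tested, 1030 (6.54%) were called different at an adjusted p under 0.05. In CD4 ThpokAD, 729 (4.63%) were higher and 301 (1.91%) were lower, and 573 of the higher and 174 of the lower differed by at least 2-fold. The 3 libraries of one group lay wholly above or below the 3 of the other for all 1030 called genes, and for 4267 (27.1%) of all genes tested. The median log2 fold change over all genes was -0.0059. For 5151 genes (32.7%), the 95% interval of the difference lay within a 2-fold change either way; for the remaining uncalled genes these libraries do not bound the difference that closely. Leaving out any 1 of the 6 libraries compared gave 438 to 586 higher and 143 to 187 lower genes, the fewest higher without CD4 ThpokAD replicate 2 or 1 (438 and 446) and the fewest lower without CD4 ThpokAD replicate 1.

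**Figure D1:**
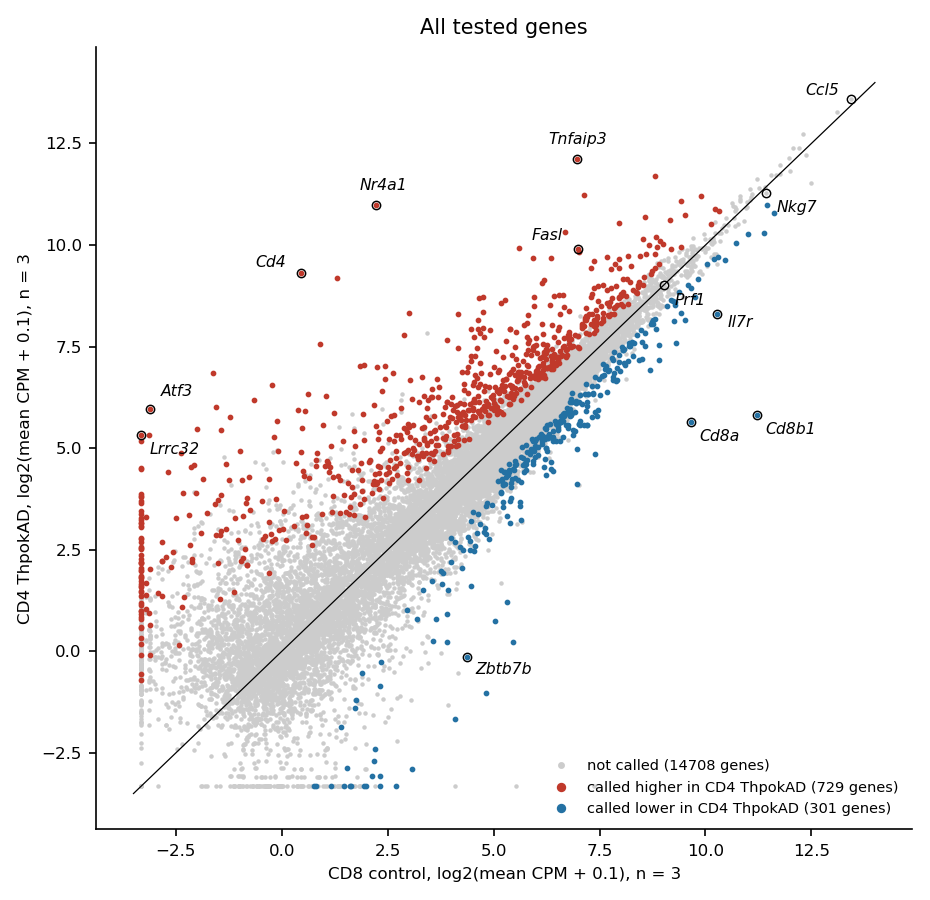
Mean level of each tested gene in CD8 control (x) and CD4 ThpokAD (y), as log2(mean CPM + 0.1), with 3 libraries per group; red and blue points are the 729 genes called higher and the 301 called lower in CD4 ThpokAD. Prf1, Nkg7 and Ccl5 lie near the diagonal, Cd4, Nr4a1 and Lrrc32 far above it, and Cd8a, Cd8b1 and Zbtb7b far below it.

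Cd4 was far higher and both chains of the CD8 coreceptor far lower in CD4 ThpokAD than in CD8 control. Cd4 (chromosome 6, 124864692 to 124888221) was at 679, 675 and 551 CPM in CD4 ThpokAD against 2.26, 1.36 and 0.222 CPM in the CD8 controls. Its log2 fold change was 9.06 (SE 0.61, adjusted p = 5.8e-05), and the CD4 controls stood at 1354 ± 57.2 CPM (SD, n = 3). Cd8a (chromosome 6, 71373427 to 71379173), the coreceptor chain that binds MHC class I, was at 64.5, 50.1 and 34.2 CPM in CD4 ThpokAD against 743, 785 and 913 CPM in CD8 control, a log2 fold change of -4.04 (SE 0.26, adjusted p = 4.7e-05). Its partner chain Cd8b1 (chromosome 6, 71322788 to 71337494) was at 58.4, 40.7 and 70.2 CPM against 2086, 2129.7 and 2919.6 CPM, a log2 fold change of -5.40 (SE 0.32, adjusted p = 2.7e-05). No library of one group entered the range of the other for any of the 3 coreceptor genes. Cd8a stood at 3.24 ± 0.824 CPM and Cd8b1 at 18.3 ± 6.07 CPM (SD, n = 3) in the CD4 controls, both below the lowest CD4 ThpokAD library. Of 13 tested CD8 lineage genes, 5 were lower and 3 higher (median log2 fold change 0.07), and 1 was higher without any 1 of the 6 libraries compared.

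Genes of the helper lineage were nearly all higher in CD4 ThpokAD. Of 13 tested members, 11 were higher in CD4 ThpokAD and 1, Zbtb7b, was lower, with a median log2 fold change of 4.63. Tnfrsf4, which encodes Ox40 and drives the Cre, was at 76.2, 107 and 59.7 CPM in CD4 ThpokAD against 0.418, 2.28 and 1.63 CPM in the CD8 controls (log2 fold change 5.81, SE 0.48, adjusted p = 1.7e-04). Cd40lg, the ligand through which helper cells license B cells and dendritic cells, was at 114, 148 and 119.5 CPM against 4.26, 0.339 and 9.32 CPM (log2 fold change 4.72, SE 0.74, adjusted p = 0.0070). All 3 CD8 control libraries lay under 10 CPM for both genes. The CD4 controls were above the CD4 ThpokAD range for both, at 378 ± 53.3 CPM for Tnfrsf4 and 395 ± 43.7 CPM for Cd40lg (SD, n = 3). Tnfsf11, the RANK ligand gene, was at 17.4, 25.5 and 23.7 CPM and had no count in any CD8 control library, which makes it at least 626-fold higher when 3 counts over that group are taken as its limit. Costimulatory receptors were present on both sides but higher in CD4 ThpokAD: Icos stood at 825 ± 103 CPM against 81.6 ± 13.03 CPM, and Cd28 at 1180.5 ± 64.6 CPM against 455 ± 43.6 CPM (SD, n = 3 each). Their log2 fold changes were 3.34 (adjusted p = 2.0e-05) and 1.37 (adjusted p = 1.0e-04). Gata3, which acts with Thpok in helper commitment, was the 1 uncalled member, with a log2 fold change of 0.20 and a 95% interval of -0.19 to 0.59.

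**Figure D2:**
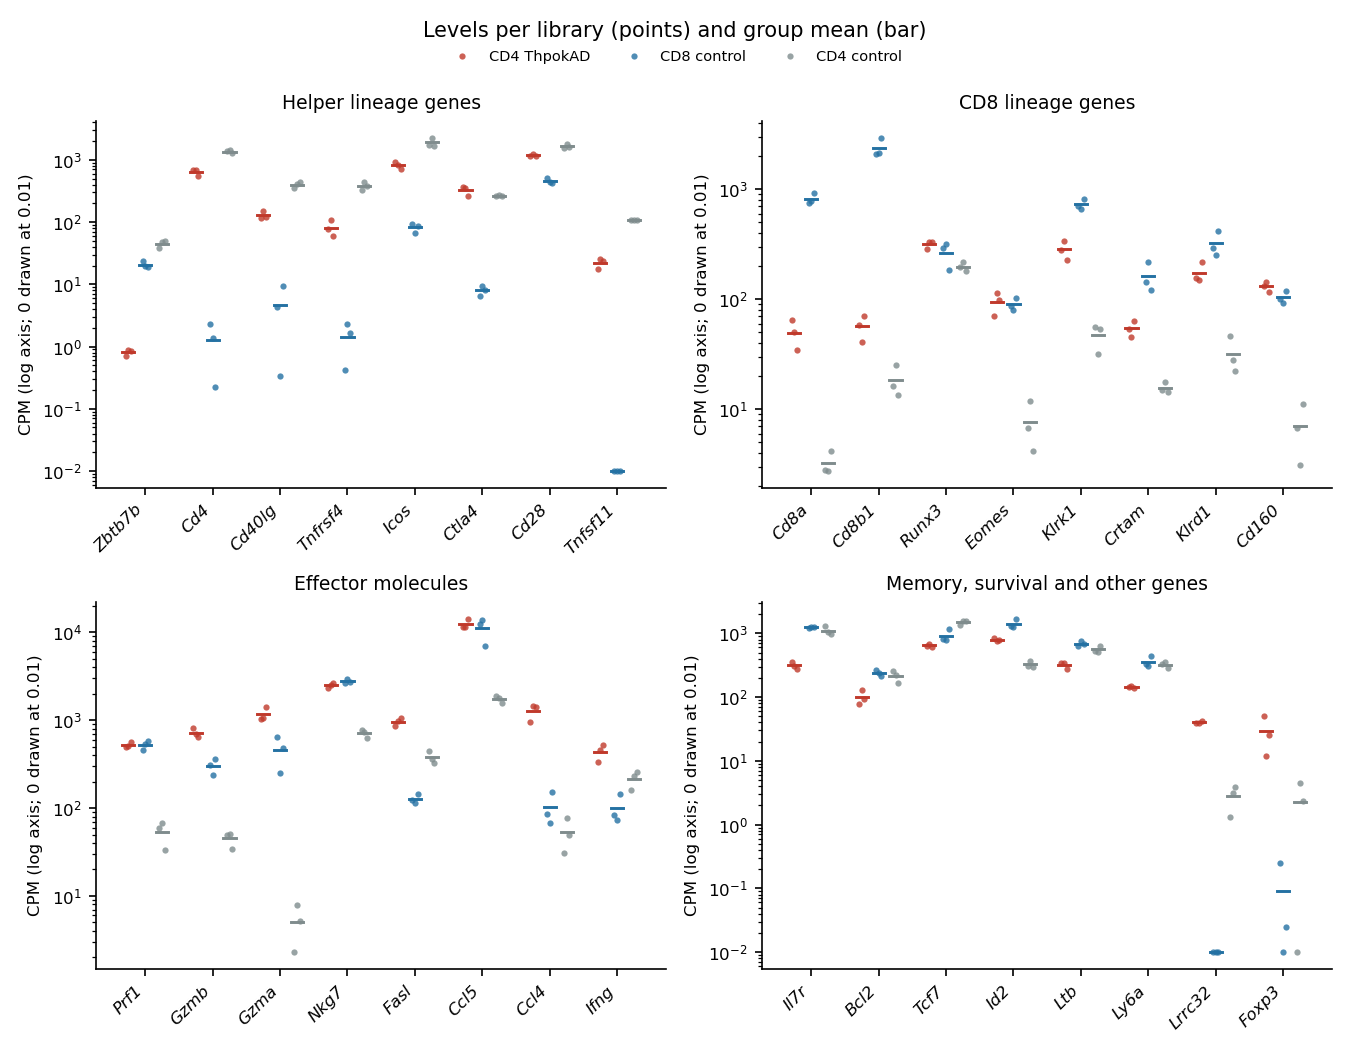
Levels of 32 genes in each library as CPM on a log axis (zero drawn at 0.01), with points for libraries and bars for the means of 3 libraries of CD4 ThpokAD (red), CD8 control (blue) and CD4 control (grey). Cd4 and Icos separate the red from the blue libraries, Prf1 and Nkg7 do not, and Il7r is lower in red than in both control groups.

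Among factors that set and keep the T cell lineages, 2 of 20 tested members were higher, 3 lower and 15 uncalled, and 16 of 20 had an interval within 2-fold. Over all genes tested, 6.54% were called and 32.7% had such an interval, so both were more frequent in this list. Runx3 stood at 315 ± 26.1 CPM in CD4 ThpokAD against 265 ± 73.2 CPM in the CD8 controls (SD, n = 3), with a log2 fold change of 0.25 and a 95% interval of -0.20 to 0.70. The 2 members that were higher were Tox, an HMG-box factor needed for the CD4 lineage in the thymus and active in chronically stimulated T cells, and Myb. Tox was at 81.1, 129 and 62.6 CPM against 12.1, 12.2 and 14.7 CPM (log2 fold change 2.80, adjusted p = 6.0e-04), and Myb, a proto-oncogene that supports T cell progenitors and stem-like memory, at 47.2 ± 9.62 CPM against 1.85 ± 1.56 CPM (log2 fold change 4.63, adjusted p = 0.010). Neither gene overlapped between the groups. The 3 lower members were Zbtb7b, Satb1, a chromatin organiser of T cells, and Lef1, a partner of Tcf7, named after its values were seen. Satb1 was at 209, 284 and 310.0 CPM against 419, 449.5 and 442 CPM (log2 fold change -0.71, adjusted p = 0.037), and Lef1 at 199, 144 and 170.2 CPM against 236, 295 and 262 CPM (log2 fold change -0.62, adjusted p = 0.040). The call of Satb1 held in 3 and that of Lef1 in 1 of the 9 fits that left out 1 library, the latter without CD4 ThpokAD replicate 1.

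Several genes of the cytotoxic program were uncalled, and the interval of the difference bounds how far apart the groups can be for each. Prf1 (chromosome 10, 61297833 to 61304680), which encodes the pore-forming protein perforin, was at 496, 508 and 561 CPM in CD4 ThpokAD against 454, 531 and 582 CPM in the CD8 controls. The ranges overlapped, and the log2 fold change was -0.0015 with a 95% interval of -0.51 to 0.50; the CD4 controls stood at 53.2 ± 17.3 CPM (SD, n = 3). Nkg7, a membrane protein of cytotoxic granules, was at 2325, 2479.8 and 2670.3 CPM against 2670.1, 2969 and 2686 CPM, with an interval of -0.38 to 0.07. Ccl5, a chemokine that CD8 memory cells store, was at 11549, 11519.8 and 14115 CPM against 12504, 13866 and 7039 CPM, with an interval of -0.34 to 0.65; its lowest value came from CD8 control replicate 3. T-bet (Tbx21) and Eomes, the T-box factors that drive effector genes, had intervals of -0.26 to 0.50 and -0.69 to 0.83, at 607 ± 79.6 against 559 ± 95.6 CPM and 94.0 ± 21.8 against 89.6 ± 11.6 CPM (SD, n = 3 each). Cxcr6, a homing receptor of effector and resident cells, had the tight interval -0.34 to 0.11, and Klrg1, a marker of terminal effector cells, a wider one of -0.40 to 0.84. Eomes stood at 7.60 ± 3.98 CPM and Klrg1 at 9.11 ± 2.82 CPM in the CD4 controls, against 235 ± 56.2 CPM for Klrg1 in CD4 ThpokAD (SD, n = 3 each).

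Further genes of this kind were uncalled with an interval that reached past 2-fold on at least one side. Gzmk had an interval of -0.44 to 1.63, Cd160 of -0.46 to 1.12 and Zeb2, a repressor that promotes terminal effector cells, of -0.95 to 1.51. Gzma was at 1034, 1056 and 1418 CPM in CD4 ThpokAD against 635, 248 and 482 CPM in the CD8 controls without overlap, with a log2 fold change of 1.36, an interval of 0.45 to 2.28 and an adjusted p of 0.087. Cx3cr1, a marker of circulating effector cells, did not overlap either (328, 294 and 414 against 228, 206 and 257 CPM, log2 fold change 0.58, interval 0.15 to 1.02, adjusted p = 0.12). Both genes passed the threshold with DESeq2 and with edgeR's bias-adjusted deviances. S1pr5, a receptor that guides egress, varied within CD4 ThpokAD (87.9, 130.5 and 269 CPM) and reached the CD8 control range (259.6, 277 and 381 CPM) in 1 library. The inhibitory lectin subunits Klrd1 and Klrc1 were uncalled with estimates of opposite sign, -0.88 (interval -1.55 to -0.21) and 0.62 (interval 0.23 to 1.01); Klrc1 was called in the 6 libraries alone and without CD4 control replicate 1 or 3.

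**Figure D3:**
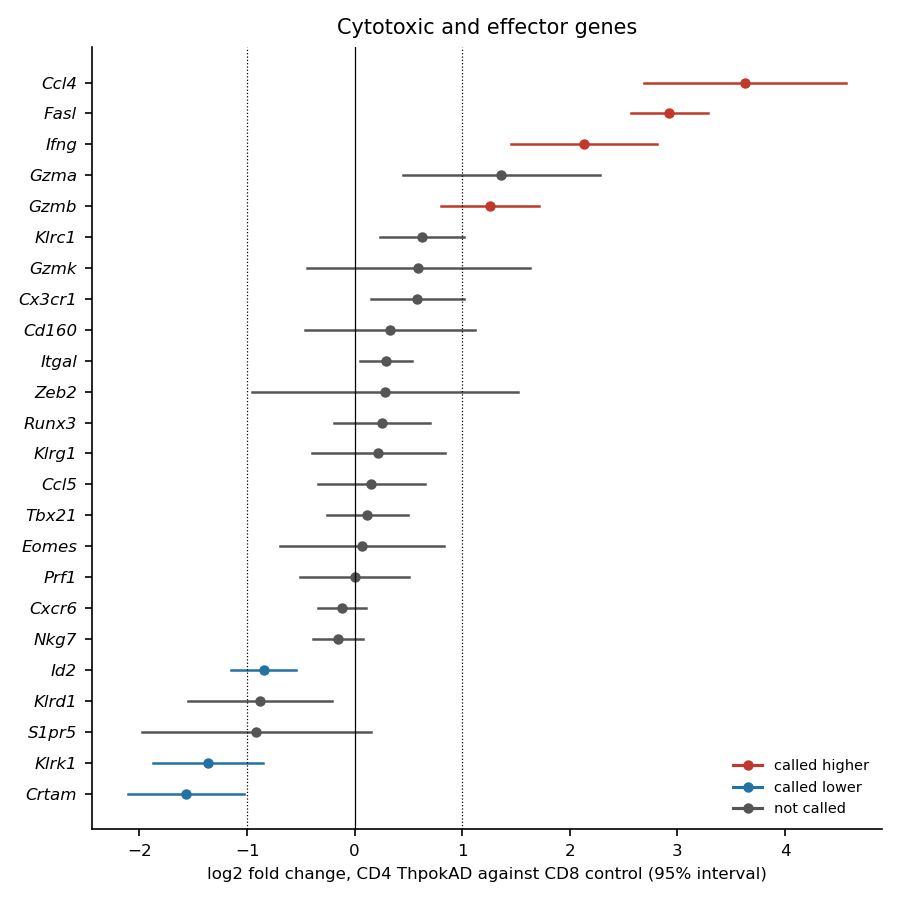
Log2 fold change of CD4 ThpokAD against CD8 control (x) with its 95% interval for 24 cytotoxic, effector and homing genes; dotted lines mark a 2-fold difference, red is called higher, blue called lower and grey not called. The intervals of Prf1, Nkg7, Ccl5, Cxcr6, Tbx21, Eomes, Runx3 and Klrg1 lie between the dotted lines.

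Counted over the lists, the cytotoxic granule genes had 7 of 19 tested members higher and 1 lower (median log2 fold change 0.59), and 11 uncalled. Gzmb, the granzyme that activates caspases in target cells, was at 819.5, 695 and 649 CPM in CD4 ThpokAD, at 306, 236 and 361 CPM in the CD8 controls and at 45.2 ± 9.43 CPM (SD, n = 3) in CD4 control. All 3 CD4 ThpokAD libraries lay above the highest CD8 control (log2 fold change 1.26, SE 0.20, adjusted p = 0.0075). Fasl (chromosome 1, 161780689 to 161788495), the death ligand that kills through Fas, was at 853, 970.3 and 1061 CPM against 123, 114 and 144 CPM, a log2 fold change of 2.92 (SE 0.16, adjusted p = 2.0e-05). Serpinb6b, an inhibitor of granule proteases, rose with them at 370.1 ± 24.0 against 80.7 ± 8.53 CPM (log2 fold change 2.20, adjusted p = 3.2e-05), as did Stx11, a syntaxin of granule release, at 147 ± 21.8 against 45.8 ± 4.04 CPM (log2 fold change 1.68, adjusted p = 4.4e-04; SD, n = 3 each). Gzmm, an uncalled granzyme gene, had a lower estimate, at 58.1, 56.5 and 102 CPM against 172, 139 and 197 CPM. The groups did not overlap for Gzmm, and its log2 fold change was -1.23 (interval -2.25 to -0.21, adjusted p = 0.16). Of 28 tested natural killer receptor genes, 26 were uncalled, 1 was higher and 1 lower, and 6 had an interval within 2-fold. Over all genes tested, 6.54% were called and 32.7% had such an interval. The share called in this list was thus near that over all genes. Klrk1, which encodes the activating receptor NKG2D, was the 1 lower member, at 282, 338 and 228 CPM against 706, 661 and 814 CPM (log2 fold change -1.36, SE 0.23, adjusted p = 0.0087). The 1 higher member, Klra2, had 1 count in all CD8 control libraries together, and its call was lost without any 1 of the 6 libraries compared and without CD4 control replicate 2 or 3. Crtam, an adhesion receptor of cytotoxic cells, was also lower, at 54.0, 45.5 and 63.0 CPM against 143, 219 and 121 CPM (log2 fold change -1.57, SE 0.24, adjusted p = 0.0059).

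Secreted effector molecules were mostly higher among the called ones. Of 28 tested chemokines and cytokines, 11 were higher and 3 lower in CD4 ThpokAD (median log2 fold change 1.79); the higher members numbered 6 without CD4 ThpokAD replicate 2 and 7 without CD8 control replicate 2 or 3. Ccl4, a chemokine made by activated T cells, was at 957, 1433 and 1427 CPM in CD4 ThpokAD against 86.4, 68.3 and 154 CPM in the CD8 controls (log2 fold change 3.63, SE 0.41, adjusted p = 0.0012). Ifng, the main cytokine of type 1 responses, was at 338, 459 and 518 CPM against 82.4, 72.7 and 144 CPM (log2 fold change 2.13, SE 0.30, adjusted p = 0.0039). The groups did not overlap for either gene, and the CD4 controls stood at 52.9 ± 23.6 CPM for Ccl4 and 216 ± 49.1 CPM for Ifng (SD, n = 3). Il10, an inhibitory cytokine, and Il21, a helper cytokine for B cells, had no count in any CD8 control library. They were at 12.1, 10.9 and 3.34 CPM and 4.19, 10.4 and 5.57 CPM in CD4 ThpokAD, at least 251-fold and 188-fold higher by the limit of 3 counts, and Il21 lost its call with bias-adjusted deviances. Ltb, the lymphotoxin chain used in lymphoid tissue organisation, was lower, at 323 ± 38.4 CPM against 687 ± 58.3 CPM (SD, n = 3; log2 fold change -1.09, adjusted p = 0.0016). Tnf missed the threshold (24.5 ± 4.31 against 8.88 ± 5.27 CPM, log2 fold change 1.45, interval 0.52 to 2.39, adjusted p = 0.076) and passed it without CD8 control replicate 3.

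Transcription factors of effector and memory cells were higher in 14 and lower in 2 of 37 tested members (median log2 fold change 0.62); the lower ones, Id2 and Lef1, numbered 1 in each fit that left out 1 library other than CD4 ThpokAD replicate 1. Bhlhe40, which supports cytokine production and tissue-resident cells, was at 2282, 2309 and 2669 CPM in CD4 ThpokAD against 144, 121 and 154 CPM in CD8 control, a log2 fold change of 4.11 (SE 0.13, adjusted p = 2.0e-06). Prdm1, which encodes Blimp1, a repressor that drives terminal effector differentiation, was at 123, 126 and 146 CPM against 38.7, 60.5 and 43.8 CPM (log2 fold change 1.47, adjusted p = 0.0078). Bcl6, the repressor that opposes Blimp1 in follicular helper cells, was higher as well, at 73.8, 85.6 and 39.5 CPM against 20.2, 15.4 and 16.72 CPM (log2 fold change 1.92, adjusted p = 0.0086). Both antagonists were thus above the CD8 control range in each CD4 ThpokAD library. In the CD4 controls, Prdm1 stood at 35.2 ± 8.87 CPM and Bcl6 at 104 ± 29.8 CPM (SD, n = 3). Nfil3 and Irf4, both induced by receptor stimulation, had log2 fold changes of 3.22 (adjusted p = 2.0e-05) and 5.17 (adjusted p = 1.5e-04). Id2, the inhibitor of E proteins that sustains CD8 effector cells, was lower, at 833, 761 and 776 CPM against 1314, 1271 and 1678 CPM (log2 fold change -0.85, SE 0.13, adjusted p = 0.0067). Tcf7, which encodes the stem-like memory factor TCF1, did not overlap but missed the threshold (649.6 ± 33.6 against 918 ± 214 CPM, log2 fold change -0.50, interval -0.85 to -0.15, adjusted p = 0.099). Klf2, which controls T cell recirculation, had an interval of -0.27 to 0.36.

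Of 22 tested genes of central memory and survival, 6 were lower and 5 higher (median log2 fold change 0.06), and the lower members numbered 3 without CD4 ThpokAD replicate 2. Il7r (chromosome 15, 9505788 to 9530176), the interleukin 7 receptor on which resting memory cells depend, was at 361, 306 and 278 CPM in CD4 ThpokAD, at 1227, 1243 and 1261 CPM in the CD8 controls and at 1108 ± 176 CPM (SD, n = 3) in CD4 control. Every CD4 ThpokAD library lay below 1227 CPM, the lowest CD8 control (log2 fold change -1.98, SE 0.14, adjusted p = 8.2e-05). Bcl2, an inhibitor of apoptosis that interleukin 7 sustains, was at 78.0, 128 and 93.8 CPM against 264, 238 and 213 CPM (log2 fold change -1.25, SE 0.22, adjusted p = 0.012). Bcl2l11, which encodes its death-promoting antagonist Bim, was higher, at 129.6, 107 and 101.5 CPM against 49.8, 32.4 and 40.8 CPM (log2 fold change 1.46, SE 0.23, adjusted p = 0.0067). Mcl1, another inhibitor of apoptosis, was uncalled and had an interval of -0.42 to 0.40. In the list of the Bcl2 family and caspases, 10 of 32 tested members were higher and 2 lower, of which 1 was lower without CD4 ThpokAD replicate 2 or 3 or CD8 control replicate 1. Ccr7, the lymph node homing receptor, was higher in CD4 ThpokAD (252, 142 and 183 against 38.5, 53.1 and 76.5 CPM, log2 fold change 1.78, adjusted p = 0.0076).

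The Ly6 and GIMAP genes and the interferon-stimulated genes had more lower than higher members. Of 16 tested Ly6 and GIMAP genes, 6 were lower (median log2 fold change -0.60). Ly6a, an interferon-induced surface protein known as Sca-1, was at 144, 152 and 141 CPM in CD4 ThpokAD against 325, 312 and 442 CPM in the CD8 controls (log2 fold change -1.31, SE 0.15, adjusted p = 0.0016). Gimap3 and Gimap4, GTPases tied to lymphocyte survival, had log2 fold changes of -0.74 (adjusted p = 0.0032) and -0.65 (adjusted p = 0.0042). Of 56 tested interferon-stimulated genes, 8 were lower and 4 higher (median log2 fold change -0.46); the higher members numbered 2 without CD8 control replicate 1 or 2 or any 1 CD4 control library. Ifi47, an interferon-inducible GTPase, was at 144, 153 and 134 CPM against 444, 451 and 535 CPM (log2 fold change -1.73, SE 0.18, adjusted p = 6.0e-04). Slfn1, a Schlafen gene linked to quiescence, was at 55.7 ± 5.98 CPM against 175 ± 42.4 CPM (SD, n = 3; log2 fold change -1.65, adjusted p = 0.0010). Irf7, the factor that amplifies type I interferon, went the other way, at 494, 517 and 466 CPM against 148, 192 and 153 CPM (log2 fold change 1.58, SE 0.13, adjusted p = 1.5e-04).

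The largest changes were ranked among called genes with at least 10 CPM in the higher group. T cell receptor segments, predicted genes and pseudogenes were left out of the ranking. The 10 largest decreases were Cd8b1, Zbtb7b, Rab6b, Cd8a, Pigg, Bcdin3d, Dstyk, Adgrg5, Ifit1bl1 and Smug1. Ifit1bl1, a relative of the interferon-induced Ifit genes, was at 26.5, 26.5 and 33.0 CPM against 165, 116 and 223 CPM (log2 fold change -2.55, SE 0.24, adjusted p = 4.2e-04). Adgrg5, an adhesion G protein-coupled receptor, was at 17.8, 21.5 and 12.7 CPM against 127, 145 and 100.8 CPM with an adjusted p of 0.049. Its call, and those of Rab6b, Pigg, Bcdin3d and Dstyk, held in only 2 to 4 of the 9 fits that left out 1 library and were lost without CD8 control replicate 1 or 2, among others. Smug1 lost its call without CD4 ThpokAD replicate 1 or CD8 control replicate 1.

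**Figure D4:**
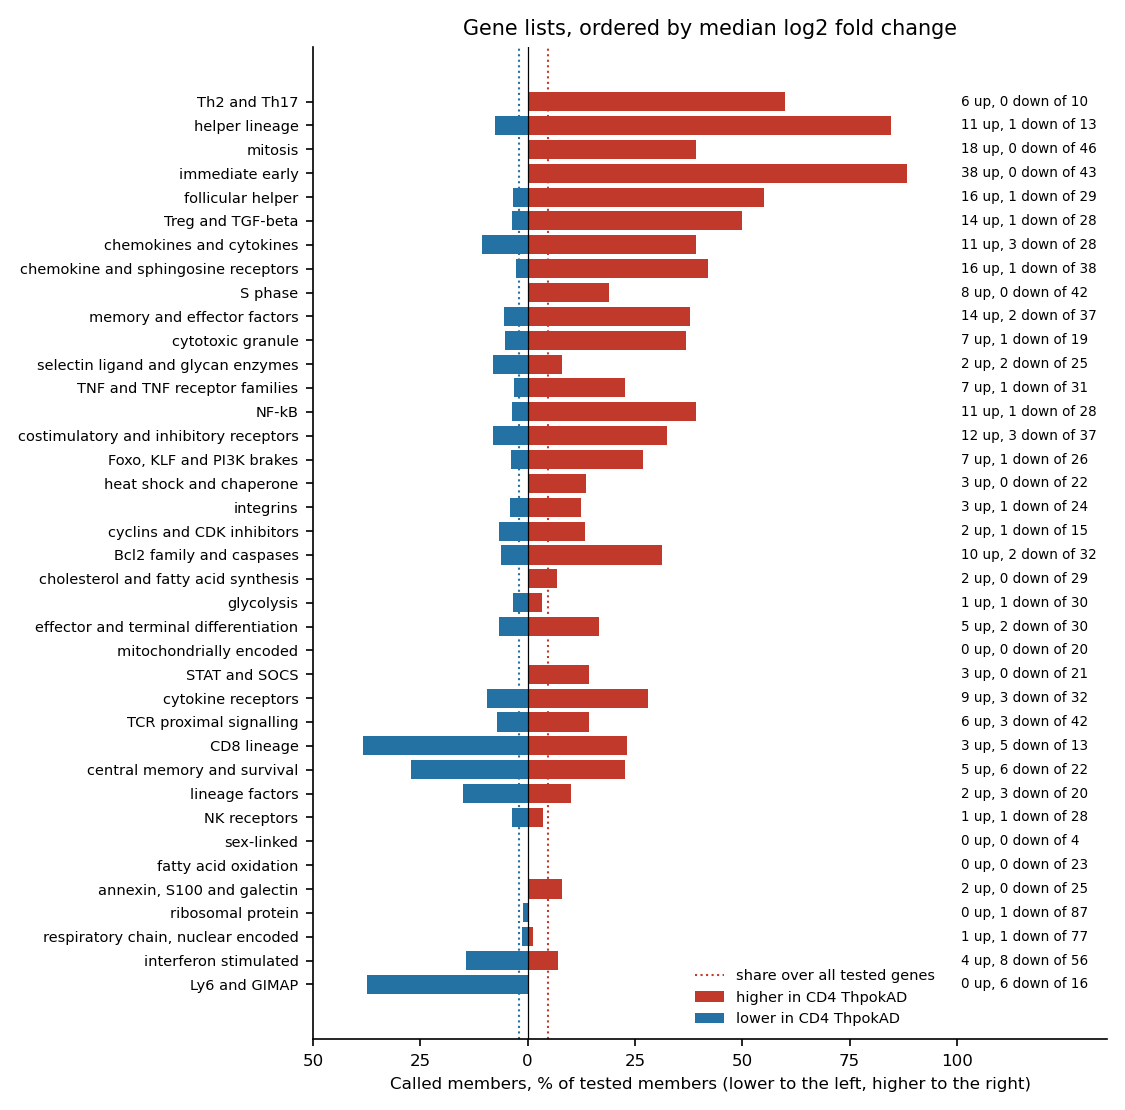
Share of each list's tested members called higher (red, to the right) or lower (blue, to the left) in CD4 ThpokAD than in CD8 control, in order of the list's median log2 fold change; dotted lines mark the shares over all genes, 4.63% and 1.91%, and the counts stand at the right. Helper, immediate early and mitosis lists reach far to the right, Ly6 and GIMAP genes to the left, and ribosomal, respiratory chain and fatty acid oxidation genes stay near 0.

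Immediate early genes, which receptor stimulation or stress switches on within minutes without new protein synthesis, were nearly all higher in CD4 ThpokAD: 38 of 43 tested members, with a median log2 fold change of 2.87. None was called lower, although 2 had lower values at an unadjusted p under 0.05, and DESeq2 called 2 lower and limma 1. The Nr4a genes encode orphan nuclear receptors induced by T cell receptor signals, Dusp1 a phosphatase that switches off MAP kinases, and Tnfaip3 the NF-kB brake A20. Nr4a1 was at 1689.9, 2113 and 2317 CPM in CD4 ThpokAD against 1.92, 7.36 and 4.41 CPM in the CD8 controls (log2 fold change 8.81, SE 0.47, adjusted p = 2.0e-05). Nr4a2 was at 597, 712 and 445 CPM against 2.34, 3.05 and 1.70 CPM (log2 fold change 7.98, SE 0.30, adjusted p = 2.6e-06), and Nr4a3 at 191, 206 and 176 CPM against 1.42, 3.29 and 0.567 CPM (log2 fold change 6.85, SE 0.56, adjusted p = 1.5e-04). All 3 CD8 control libraries were under 10 CPM for each Nr4a gene. Dusp1 was at 763, 1128 and 1032 CPM against 32.4, 68.3 and 44.99 CPM (log2 fold change 4.33, adjusted p = 5.7e-05) and Tnfaip3 at 3739, 4657 and 4956 CPM against 78.6, 150.2 and 146 CPM (log2 fold change 5.15, adjusted p = 2.0e-05). Cd69, the early activation antigen that retains cells in tissue, was at 915 ± 131 CPM against 130.1 ± 20.0 CPM (SD, n = 3; log2 fold change 2.82, adjusted p = 3.2e-05).

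Nr4a1, Dusp1 and Tnfaip3 were also high in CD4 cells with Thpok: the CD4 controls stood at 2303 ± 166 CPM for Nr4a1, 973 ± 94.6 CPM for Dusp1 and 5218 ± 113 CPM for Tnfaip3 (SD, n = 3). The 5 uncalled members, named here after their values were seen where they are not the most abundant, were Ier5, Zfp36, Hspa1b, Ier3 and Myc. Their intervals were -0.68 to 0.81, -0.17 to 0.81, 0.35 to 2.08, -2.27 to -0.59 and -1.74 to -0.35, so that Ier3 and Myc, the growth factor-induced proto-oncogene, had estimates below 0; DESeq2 and edgeR with bias-adjusted deviances called both lower. Zfp36 was called without CD8 control replicate 3. Between the 2 groups compared, summed myeloid markers moved the same way as this list, at 786 to 1088 CPM against 317 to 569 CPM. In CD4 control the myeloid markers summed to 523 to 758 CPM. The immediate early genes summed to 30141 to 34229 CPM there, against 22667 to 28572 CPM in CD4 ThpokAD. The part of myeloid markers in this list was not tested.

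**Figure D5:**
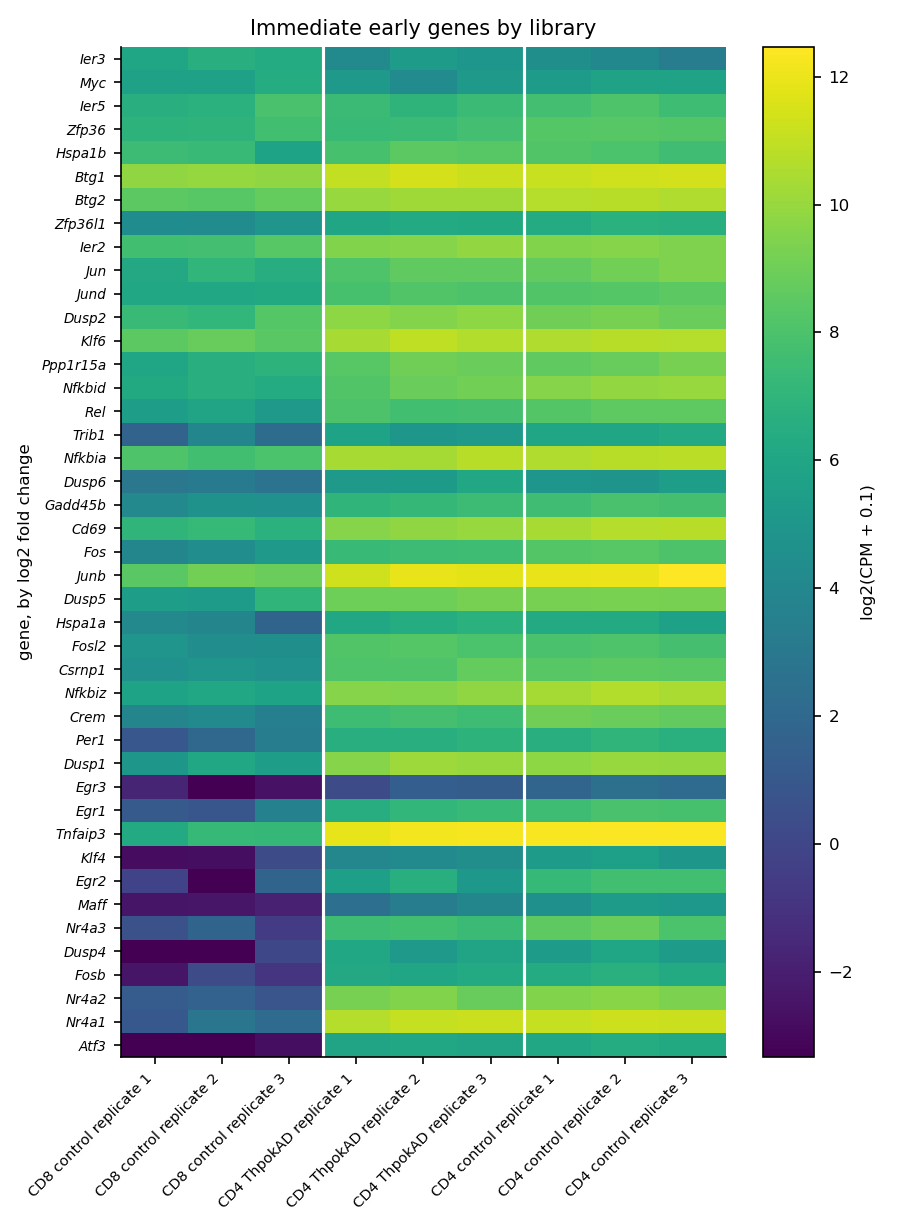
Level of each of 43 immediate early genes in each library, as log2(CPM + 0.1) by colour, with genes ordered by log2 fold change and libraries grouped as CD8 control, CD4 ThpokAD and CD4 control. The CD8 control columns are darker than both CD4 groups for nearly all genes; Ier3, Myc, Ier5, Zfp36 and Hspa1b, the 5 uncalled ones, stand at the top.

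The promoters of 4 of these genes are shown because they held the most copies of one motif among the members with an entry; they were chosen after the motif had been counted. The cAMP response element, bound by CREB and related factors, has the half-site TGACG, which reads CGTCA along the other strand, and the full site TGACGTCA, in which 2 half-sites overlap. The 250 bases before the RefSeq start of Nr4a1 (chr15:101266596-101266845, plus strand), Nr4a2 (chr2:57124004-57124253, minus strand) and Nr4a3 (chr4:48045055-48045304, plus strand) each held 4 half-sites counted over both strands. Those of Dusp1 (chr17:26508473-26508722, minus strand) held 3, of which 2 formed 1 full site. Sequences are from RefSeq, build GRCm38.p6, 5′ to 3′ along the gene, with the half-sites in capitals.
Nr4a1: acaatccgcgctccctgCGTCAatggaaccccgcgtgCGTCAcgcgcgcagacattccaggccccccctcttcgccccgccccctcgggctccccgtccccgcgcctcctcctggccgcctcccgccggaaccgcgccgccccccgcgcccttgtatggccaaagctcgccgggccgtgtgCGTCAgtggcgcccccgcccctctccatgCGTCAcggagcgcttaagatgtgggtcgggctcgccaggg
Nr4a2: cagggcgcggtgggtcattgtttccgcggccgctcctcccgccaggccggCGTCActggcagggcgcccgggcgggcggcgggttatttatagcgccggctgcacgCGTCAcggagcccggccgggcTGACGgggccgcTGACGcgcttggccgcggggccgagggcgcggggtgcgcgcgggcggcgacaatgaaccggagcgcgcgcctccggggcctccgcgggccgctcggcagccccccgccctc
Nr4a3: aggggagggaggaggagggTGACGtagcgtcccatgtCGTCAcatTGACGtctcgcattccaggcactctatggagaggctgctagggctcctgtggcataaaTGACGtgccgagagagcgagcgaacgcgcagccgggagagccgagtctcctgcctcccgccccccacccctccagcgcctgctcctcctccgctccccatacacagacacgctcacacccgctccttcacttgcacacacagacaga
Dusp1: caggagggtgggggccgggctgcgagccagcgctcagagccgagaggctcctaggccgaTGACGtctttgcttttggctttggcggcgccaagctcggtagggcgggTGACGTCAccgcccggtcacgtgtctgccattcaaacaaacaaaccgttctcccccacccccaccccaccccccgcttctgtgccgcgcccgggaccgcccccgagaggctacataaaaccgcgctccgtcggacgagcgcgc
An entry was found for 30 of the 38 higher members. Of these 30, 17 held at least 1 half-site, 3 held at least 4 and 3 held a full site, and the rest, such as Egr2, Klf6 and Nfkbia, held no half-site. Atf3 and Tnfaip3, with larger differences than Dusp1, held 1 half-site each. Over the 9445 tested genes with an entry, 27.8% held at least 1 half-site in the same window, 0.392% held at least 4 and 2.83% held a full site. Over all 27025 promoters of that table the shares were 17.9%, 0.152% and 1.62%. A match describes the letters only.

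Genes of helper subsets were higher over several lists. Of 29 tested follicular helper genes, 16 were higher, 1, Lef1, was lower and 12 were uncalled (median log2 fold change 2.71). Pdcd1, which encodes the inhibitory receptor PD-1, was at 437, 529 and 282 CPM in CD4 ThpokAD against 23.2, 30.8 and 20.6 CPM in CD8 control (log2 fold change 4.07, SE 0.30, adjusted p = 8.4e-05). Tox2, an HMG-box factor of follicular helper cells, was at 25.7, 66.2 and 16.5 CPM and had no count in the CD8 controls, at least 1011-fold higher by the limit of 3 counts. CD4 ThpokAD replicate 2 was the highest of its group for Pdcd1, Tox2 and Tox alike. Angptl2, a secreted protein of the angiopoietin-like family, likewise had counts in no CD8 control library (15.3, 10.99 and 12.6 CPM, at least 369-fold higher). Tigit, an inhibitory receptor, was at 109 ± 31.7 CPM against 9.76 ± 1.00 CPM (SD, n = 3; log2 fold change 3.48, adjusted p = 6.8e-05), and Ctla4, which competes with Cd28 for its ligands, at 321 ± 55.9 CPM against 7.96 ± 1.48 CPM (log2 fold change 5.33, adjusted p = 2.6e-06). Lag3 was low and uncalled (3.28 ± 0.610 against 0.722 ± 0.245 CPM, interval 0.25 to 4.09). Cxcr5 was uncalled too, at 44.3, 143 and 33.3 CPM against 19.2, 27.7 and 12.2 CPM. Its log2 fold change was 1.91 (interval 0.69 to 3.13, adjusted p = 0.074), and the CD4 controls stood at 228 ± 43.7 CPM (SD, n = 3). Sh2d1a and Slamf6 were uncalled with intervals of -0.02 to 0.83 and -0.41 to 0.33.

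Of 28 tested genes of regulatory T cells and TGF-beta signalling, 14 were higher and 1 lower (median log2 fold change 2.37); none was lower without CD4 ThpokAD replicate 2, CD8 control replicate 2 or 3 or CD4 control replicate 3. Lrrc32 (chromosome 7, 98489283 to 98502181), which encodes GARP, the protein that holds latent TGF-beta on the cell surface, was at 38.8, 39.1 and 42.4 CPM in CD4 ThpokAD, at 0 in all 3 CD8 controls and at 1.30, 3.14 and 3.90 CPM in the CD4 controls. It was at least 1137-fold higher than in CD8 control by the limit of 3 counts. Foxp3, the factor that defines regulatory T cells, was at 50.1, 11.8 and 25.6 CPM against 0.251, 0 and 0.0247 CPM, and it varied more among the CD4 ThpokAD libraries than Lrrc32 did. Its log2 fold change was 8.29 (SE 1.69, adjusted p = 0.023), and leaving out any 1 of 4 libraries ended the call: CD4 ThpokAD replicates 1 and 3 and CD8 control replicates 2 and 3. Over the 9 fits that left out 1 library, the adjusted p of Foxp3 ranged from 0.0063 to 0.087. Il2ra, the interleukin 2 receptor chain that regulatory T cells carry, was uncalled with an interval of -0.67 to 1.04. Areg, which encodes the growth factor amphiregulin, was at 10.98, 21.6 and 8.91 CPM with no count in CD8 control (at least 389-fold higher). Of 10 tested genes of type 2 and type 17 cells, 6 were higher. Ccr8 was at 25.6, 21.4 and 22.1 CPM against 0.376, 0 and 0 CPM (adjusted p = 0.0071), and Ccr6 at 18.5, 7.33 and 7.002 CPM with no count in CD8 control (at least 316-fold higher); both are chemokine receptors that guide such cells to barrier tissues.

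By the ranking used for the largest decreases, the remaining largest increases were Ramp3, Nav2, Ptgs2, Actg2 and Atf3. Ramp3, an accessory protein of calcitonin family receptors, was at 24.8, 28.5 and 15.4 CPM, Nav2 at 5.64, 23.6 and 14.4 CPM and Ptgs2, which encodes the prostaglandin enzyme COX-2, at 12.2, 7.49 and 22.3 CPM, each with no count in CD8 control. By the limit of 3 counts they were at least 649.5-fold, 405-fold and 398-fold higher. Atf3, a stress-induced factor of the immediate early list, was at 58.9, 70.0 and 59.5 CPM with 2 counts over the CD8 controls, a ratio of 2665 (95% counting interval 737 to 22017). Actg2, a smooth muscle actin, was at 42.9, 17.0 and 59.7 CPM with 1 count there, and its call was lost without CD8 control replicate 1 or 3.

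Cell cycle genes leaned to CD4 ThpokAD with wide spread among libraries. Of 46 tested mitosis genes, 18 were higher (median log2 fold change 3.21), and 11 without CD4 ThpokAD replicate 1. DESeq2 called 31 of them higher, limma 30 and edgeR with bias-adjusted deviances 39, while a replicate block gave 14. Cenpa, a centromeric histone, was at 147, 106 and 97.8 CPM in CD4 ThpokAD against 17.2, 17.6 and 21.9 CPM in the CD8 controls (log2 fold change 2.63, SE 0.19, adjusted p = 8.4e-05). Cks1b, a subunit of cyclin-dependent kinases, was at 36.1, 30.2 and 30.0 CPM against 5.18, 4.51 and 5.52 CPM (log2 fold change 2.66, SE 0.25, adjusted p = 3.7e-04). The 2 genes differed in the CD4 controls, where Cenpa stood at 150.1 ± 6.23 CPM and Cks1b at 5.78 ± 0.617 CPM (SD, n = 3). Mki67, the common proliferation marker, was at 296, 171 and 218 CPM against 28.6, 0 and 3.08 CPM and did not overlap. Its log2 fold change of 4.44 (interval 1.58 to 7.29) missed the threshold (adjusted p = 0.075) and passed it without CD8 control replicate 1, the highest of its group. Of 42 tested S phase genes, 8 were higher (median log2 fold change 0.89). The number fell to between 2 and 5 without any 1 of the CD4 ThpokAD libraries, CD8 control replicate 2 or 3, or CD4 control replicate 2. It was 17 with DESeq2 and with bias-adjusted deviances, 14 with limma and 4 with a replicate block. Ccnd3, a D cyclin, was lower in CD4 ThpokAD (404 ± 35.2 against 587 ± 22.1 CPM, SD, n = 3; log2 fold change -0.54, adjusted p = 0.014), and Ccnd2 had an interval of -0.41 to 0.29.

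Cytokine receptors and their signalling genes were mixed. Of 32 tested receptors, 9 were higher and 3 lower; without CD4 ThpokAD replicate 1 or 2, 5 were higher, and without replicate 1 only 1 was lower. Il21r was higher, at 509 ± 42.9 CPM against 236 ± 13.8 CPM (SD, n = 3; log2 fold change 1.11, adjusted p = 0.0029), and Il12rb2, a receptor chain of type 1 cells, had an interval of -0.74 to 0.82. Il2rb, the chain shared by the interleukin 2 and 15 receptors, was at 928, 952 and 982 CPM against 613, 582 and 892 CPM and uncalled (log2 fold change 0.46, adjusted p = 0.18); it was called higher without CD8 control replicate 3. Socs3, a feedback inhibitor of cytokine signals, was at 220.4, 284 and 235 CPM against 37.6, 44.6 and 42.1 CPM (log2 fold change 2.57, SE 0.13, adjusted p = 2.0e-05), and Cish and Pim1, which cytokine signals through STAT5 induce, had log2 fold changes of 1.64 (adjusted p = 6.0e-04) and 1.74 (adjusted p = 0.0018). Of 21 tested STAT and SOCS genes, these 3 were the called ones, all higher.

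Homing genes and receptor signalling genes differed in how many were called. Of 38 tested chemokine, sphingosine and related receptor genes, 16 were higher and 1 lower (median log2 fold change 1.09), the latter 0 without CD4 ThpokAD replicate 2. The lower one, Cxcr3, was at 269, 236 and 224 CPM in CD4 ThpokAD against 376, 456 and 546 CPM in CD8 control. Its log2 fold change was -0.92 (SE 0.17, adjusted p = 0.016), and the CD4 controls stood at 422 ± 74.2 CPM (SD, n = 3). Rgs1, a brake on chemokine receptor signals that is high in resident T cells, was at 607, 494 and 579 CPM in CD4 ThpokAD against 75.3, 64.5 and 77.1 CPM in CD8 control (log2 fold change 2.95, SE 0.17, adjusted p = 2.7e-05). P2ry10, a lysophospholipid receptor, was at 411, 493 and 369.5 CPM against 47.2, 77.1 and 61.4 CPM (log2 fold change 2.78, SE 0.21, adjusted p = 9.9e-05). S1pr1, which carries T cells out of lymphoid tissue, had an interval of -0.29 to 0.50, and the integrin chain Itga4 one of -0.13 to 0.34. Of 42 tested genes of proximal T cell receptor signalling, 31 had an interval within 2-fold, 6 were higher and 3 lower (median log2 fold change 0.10); the lower ones numbered 0 without CD4 ThpokAD replicate 1 and 1 without CD4 ThpokAD replicate 3 or CD8 control replicate 1 or 3. Sh2d2a, an adaptor of T cell signalling, was at 1001, 1125 and 939 CPM against 375, 417 and 423 CPM (log2 fold change 1.33, adjusted p = 1.2e-04), and Orai1, the pore of the store-operated calcium channel, at 259, 274 and 256 CPM against 57.0, 40.5 and 60.7 CPM (log2 fold change 2.32, adjusted p = 8.2e-05). Cd5, whose level follows the strength of receptor signals, was also higher (log2 fold change 0.98, adjusted p = 0.0029), and Cd3e had an interval of -0.65 to 0.28.

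Calls in the metabolic and housekeeping lists stand beside the shares over all genes tested, 4.63% higher and 1.91% lower. Over all genes, 32.7% had an interval within 2-fold. The share called among glycolysis genes was near the 6.54% over all genes. Of 77 tested nuclear genes of the respiratory chain, 1 was higher and 1 lower, and 64 had an interval within 2-fold; the higher one lost its call in each of the 9 fits that left out 1 library, and the lower one without CD4 ThpokAD replicate 2. Of 30 glycolysis genes, 1 was higher and 1 lower, with 20 intervals within 2-fold; none was higher without any 1 CD4 ThpokAD library or CD8 control replicate 3, and none lower when any 1 of CD4 ThpokAD replicates 1 and 2 or of replicates 2 and 3 of either control group was left out. None of 23 tested fatty acid oxidation genes was called by edgeR, DESeq2 or limma (0 at an unadjusted p under 0.05), and 17 had an interval within 2-fold. Ribosomal protein genes had 1 of 87 lower, a number that came to 5 when CD8 control replicate 3 was left out and to 0 when any 1 of the other CD8 controls or of CD4 ThpokAD replicates 1 and 3 was. None of 20 mitochondrially encoded genes was called by edgeR, DESeq2 or limma (0 at an unadjusted p under 0.05), although CD8 control replicate 3 was far lower than the rest for both groups of genes.

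MHC class II genes were higher in CD4 ThpokAD, beside other markers of antigen-presenting cells. Of 15 tested markers of dendritic cells and MHC class II, 4 were higher, and the list summed to 1085 to 1958 CPM in CD4 ThpokAD, 476 to 578 CPM in CD8 control and 886 to 1638 CPM in CD4 control. Cd74, the invariant chain that escorts class II molecules, was at 891, 977 and 475 CPM against 145, 218 and 129 CPM (log2 fold change 2.25, SE 0.33, adjusted p = 0.0045). H2-Ab1, a class II chain, was at 343, 403 and 179.8 CPM against 59.8, 60.9 and 47.8 CPM (log2 fold change 2.46, SE 0.39, adjusted p = 0.0074). CD4 ThpokAD replicate 3 was the lowest of its group for both. The other 11 members were uncalled. Among those that mark dendritic cells, Xcr1 was at 23.6, 18.1 and 11.2 CPM against 11.9, 11.9 and 15.9 CPM, Flt3 at 6.73, 1.75 and 0 CPM against 2.55, 4.99 and 0 CPM and Cd209a at 21.8, 22.0 and 5.62 CPM against 2.01, 0 and 0 CPM. Cd209a alone of these 3, named after its values were seen, did not overlap between the groups. Among 24 tested myeloid markers, 7 were higher; the number fell to 2 to 4 when any 1 of CD4 ThpokAD replicates 1 and 2 and CD8 control replicates 2 and 3 was left out. Vcam1, an adhesion molecule of macrophages and stroma, was at 197, 242 and 158 CPM against 66.9, 24.0 and 27.2 CPM (log2 fold change 2.34, adjusted p = 0.0094). Natural killer cell markers summed to 246 to 305 CPM in CD4 ThpokAD and 276 to 317 CPM in CD8 control, with Ncr1, which defines such cells, at 0 to 7.75 CPM. The part of other cells in the results above was not tested.

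Antigen receptor segments differed in a few genes, named here after their values were seen. Of 56 tested alpha variable segments, 2 were higher and 2 lower, and of 21 beta variable segments, 4 were higher. Over all genes tested, 6.54% were called, and the share called among the alpha segments was near that. Trav14d-3-dv8 was at 109, 139 and 100.6 CPM in CD4 ThpokAD and 0.209, 0 and 0.468 CPM in CD8 control (log2 fold change 8.73, SE 0.52, adjusted p = 2.9e-05). Trbv31 was at 119.9, 115 and 111 CPM against 9.53, 4.36 and 4.17 CPM (log2 fold change 4.26, SE 0.33, adjusted p = 1.1e-04). Both were also high in the CD4 controls, at 184 ± 22.0 and 182 ± 25.5 CPM (SD, n = 3), which bound the same peptide as the CD4 ThpokAD cells. Trav14-1 was lower, at 3.79, 1.04 and 3.98 CPM against 31.2, 23.2 and 11.8 CPM (log2 fold change -2.91, adjusted p = 0.029), a call lost without any 1 CD4 ThpokAD library or CD8 control replicate 1 or 2. Trav14 and related alpha segments are near-identical copies, so reads may have been split among them in counting. The constant genes Trac, Trbc1 and Trbc2 were uncalled, with intervals of 0.11 to 0.83, -0.01 to 0.45 and 0.0054 to 0.41, and Trac was called without CD8 control replicate 3.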

How the data were processed

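RNA of sorted spleen T cells was sequenced in 9 libraries, 3 per group. Per the submitters' processing notes, which give no order, the authors used bcl2fastq 2.17, Trimmomatic, STAR, HTSeq and DESeq2 with the mm10 build. The deposited table gives raw counts per gene; a second deposited table of scaled values was not used here. Of 48663 entries, 26449 had a count and 15738 passed edgeR's filter on low counts (minimum count 10, minimum total 15). Entries holding a date in place of a gene name numbered 27, with 20 tested and 0.243% of counts, and none is named.

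All 9 libraries entered 1 edgeR 4.0.16 quasi-likelihood fit (R 4.3.3, TMM scaling), with 1 coefficient per group and the contrast CD4 ThpokAD minus CD8 control. Genes were called at a Benjamini-Hochberg adjusted p under 0.05. The 95% intervals come from the standard error, and counting intervals and the limit of 3 counts cover counting error only. Coordinates are from GENCODE M21 (GRCm38), in which 15215 of 15738 tested symbols had a match. The CD4 control group was in the fit for its spread alone.

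Named genes were Zbtb7b, the coreceptors and Tnfrsf4, the 10 largest changes each way with at least 10 CPM and no overlap, the anchors of each of 45 lists, up to 4 called members per list with the smallest p and up to 3 uncalled ones with the highest level; others are said to be named after their values were seen. The largest changes leave out T cell receptor segments, predicted genes and pseudogenes. The members and lists were chosen with earlier results of these data known, so lists are described by counts and medians and not tested. Alternatives were the 6 libraries alone, DESeq2 size factors, DESeq2 1.42.0, limma 3.58.1, bias-adjusted deviances, no filter, a replicate block and leaving out each library.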

Additional observations from a re-analysis of the deposited data

How the results depend on the processing

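Against 729 higher genes, 301 lower genes and 747 genes with at least a 2-fold difference, DESeq2 called 1529, 856 and 1421, and edgeR with bias-adjusted deviances 1109, 530 and 1201. With the 6 libraries alone the counts were 556, 216 and 627, with DESeq2 size factors 767, 278 and 745, with limma 916, 406 and 974, and with no filter 594, 209 and 638. Leaving out each of the 9 libraries in turn gave 438 to 586 higher, 143 to 222 lower and 492 to 613 with a 2-fold difference. Over all 16 alternatives 64.1% to 77.0% of calls were higher. Same-numbered deviations from the group means correlated at 0.016, -0.045 and 0.0075 between CD4 ThpokAD and CD8 control. Between CD8 control and CD4 control they correlated at 0.0087, 0.0053 and 0.062. With 3 libraries per group, these values cannot decide whether the replicate numbers pair the samples. A replicate block gave 501 higher, 183 lower and 544 with a 2-fold difference, and the causes of these shifts in the counts were not tested. Of 144 genes named in the text with a test, 97 were called, 84 of these in every fit that left out 1 library. Gzmm, Cxcr3, Cxcr5, Sh2d1a and Slamf6 are not counted here. None of the 97 called genes changed sign under any of the 16 alternatives, and 14 of 47 uncalled ones did in at least 1 alternative. Genes with few counts in CD8 control have no bounded fold change at this depth, and 3 libraries per group leave wide intervals for variable genes such as Mki67 and Foxp3.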

Other observations

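Further lists, chosen like those above with earlier results known, add the following values. Of 28 tested NF-kB genes, 11 were higher and 1 lower in CD4 ThpokAD (median log2 fold change 0.50; none was lower without CD4 ThpokAD replicate 1 or 3, CD8 control replicate 2 or 3 or CD4 control replicate 1), and some of the 11, such as Nfkbia and Nfkbiz, also stand in the immediate early list. Nfkbia, the inhibitor that holds NF-kB in the cytoplasm, was at 1352, 1318 and 1771 CPM in CD4 ThpokAD against 280.3, 206 and 257 CPM in the CD8 controls (log2 fold change 2.58, SE 0.16, adjusted p = 4.0e-05). Its relative Nfkbiz was at 775, 742 and 931 CPM against 56.6, 69.4 and 57.0 CPM (log2 fold change 3.74, adjusted p = 2.7e-06), and the CD4 controls stood at 1689 ± 135.4 CPM for Nfkbia and 1445 ± 140.0 CPM for Nfkbiz (SD, n = 3). Birc3, an inhibitor of apoptosis that NF-kB induces, had a log2 fold change of 1.57 (adjusted p = 2.1e-04), and Nfkb2, a subunit of the noncanonical pathway, one of 1.07 (adjusted p = 0.0057). Traf1, an adaptor of TNF receptors, was uncalled with an interval of -0.18 to 0.45, while the CD4 controls stood at 650.0 ± 64.5 CPM against 282 ± 21.6 CPM in CD4 ThpokAD (SD, n = 3 each). Of 37 costimulatory and inhibitory receptors, 12 were higher and 3 lower (median log2 fold change 0.41), and of 31 members of the TNF and TNF receptor families, 7 and 1 (median 0.56; 2 were lower without CD8 control replicate 3).

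Of 26 tested Foxo, KLF and PI3K genes, 7 were higher and 1 lower (median log2 fold change 0.38). Klf6, a zinc finger factor that is also in the immediate early list, was at 1360.2, 1997 and 1616 CPM in CD4 ThpokAD against 366, 435 and 350.0 CPM in the CD8 controls (log2 fold change 2.11, adjusted p = 8.2e-05). Pik3r1, a regulatory subunit of PI3K, was at 367, 331 and 353 CPM against 174, 129 and 130.1 CPM (log2 fold change 1.28, adjusted p = 0.0057). Pik3ip1, a PI3K inhibitor of resting T cells, was the 1 lower member, at 50.4, 59.2 and 31.7 CPM against 138, 133 and 148 CPM (log2 fold change -1.57, SE 0.25, adjusted p = 0.0070). The CD4 controls were as low, at 52.3 ± 11.6 CPM (SD, n = 3).

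Annexin, S100 and galectin genes of effector T cells had 2 of 25 tested members higher and none lower. Over all genes tested, 6.54% were called, so the share called in this list was near that over all genes. Lgals3, which encodes galectin 3, was at 421, 276 and 257 CPM in CD4 ThpokAD, at 115, 84.6 and 84.4 CPM in the CD8 controls and at 51.0 ± 5.85 CPM (SD, n = 3) in the CD4 controls, so that CD4 ThpokAD was above the range of both (log2 fold change 1.75 against CD8 control, SE 0.22, adjusted p = 0.0022). The other member, Anxa2 (log2 fold change 0.73, adjusted p = 0.042), kept its call in 1 of the 9 fits that left out 1 library. Lgals1, S100a6 and Ahnak, abundant in effector and memory cells, were uncalled with intervals of -0.24 to 0.84, -0.80 to 0.06 and -0.06 to 0.54. Of 29 tested genes of cholesterol and fatty acid synthesis, 2 were higher, a share also near that over all genes. In this list 1 was higher without CD4 ThpokAD replicate 1 or 2 or CD8 control replicate 3. Of 22 tested heat shock and chaperone genes, 3 were higher, and Hspa8, an abundant constitutive chaperone, had an interval of -0.22 to 0.63; the number was 2 in each fit that left out 1 library except that without CD4 ThpokAD replicate 1.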
